A study of Rattus norvegicus with 48 samples.

Results

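Genes of cytochrome P450 families 1 to 4 were followed in rat liver after ischemia and reperfusion, with or without conditioning of the liver. Members were the genes whose only platform symbol starts with Cyp, a family number from 1 to 4, a subfamily letter and a number. Of 14506 genes on the array with a symbol of their own, 51 met this rule, 3 in family 1, 31 in family 2, 5 in family 3 and 12 in family 4, in 20 subfamilies. Each had 1 probe set. All 51 matched RefSeq genes by identifier, 50 of them protein coding and Cyp2s1-ps1 a transcribed pseudogene; RefSeq lists 80 rat genes of these families.

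Cytochrome P450 enzymes of these families are heme proteins of the endoplasmic reticulum that oxidise drugs, toxins, steroids and fatty acids, with electrons supplied by the reductase Por and by cytochrome b5. Hepatocytes are their main site, and their genes answer to xenobiotic receptors: Cyp1a genes to the aryl hydrocarbon receptor Ahr, Cyp2b genes to Nr1i3 (CAR), Cyp3a genes to Nr1i2 (PXR) and Cyp4a genes to the fatty acid receptor Ppara. In rats, growth hormone secretion sets several forms at male levels (Cyp2c11, Cyp2c13, Cyp2a2, Cyp3a2 and Cyp3a18) or female levels (Cyp2c12 and Cyp3a9).

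Total RNA from right-lobe biopsies of 48 male Wistar rats of 300 to 350 g, all anaesthetised with fentanyl, fluanisone and midazolam and opened by laparotomy, was hybridised to Affymetrix arrays, 1 array per animal. The sham group (8 rats) had no ischemia, and in the IRI group (10 rats) all blood flow to the liver was stopped for 30 min and then restored for 30 min. Livers of the IPC group (10 rats) went through a shorter ischemia of 10 min, followed by flow for 10 min, ahead of that insult. In the IPO group (10 rats) reperfusion began with 3 cycles, each of 30 sec with flow and 30 sec without, and the IPC+IPO group (10 rats) had both. Animals are named by the numbers in their labels, and no batch is named there. The IPC and IPC+IPO livers thus also differ from IRI in time and in total ischemia, and an effect of these cannot be told apart from one of preconditioning. The IPO and IPC+IPO livers had 3 further spells of 30 sec without flow. An effect of this added ischemia cannot be told apart from one of postconditioning.

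Levels are on the log2 scale, and their precision is limited by the number of arrays. Hepatocyte genes were bright in all 48 arrays, with Alb from 12.80 to 13.39 and Apoa1 from 11.94 to 12.73. Arrays differed in spread, here the SD of an array's log2 values over the genes, which ran from 1.498 to 1.965. Its mean was lowest in sham at 1.72, followed by 1.77 for IRI, 1.85 for IPC, 1.86 for IPC+IPO and 1.91 for IPO, so that spread moved with the groups. It was lowest in IPC+IPO animal 38 (1.498) and IRI animal 7 (1.54), and the 14 arrays of lowest spread held 6 of the sham and 4 of the IRI arrays against 1, 1 and 2 of IPC, IPO and IPC+IPO. Within groups, 43 of the 51 members followed spread past the threshold, 36 upward and 7 downward, against 41.9% and 41.7% of all genes. Differences between groups are therefore given as deposited and, where named, with spread as a covariate. Since spread moved with the groups, an effect of group and one of spread cannot be told apart in such a fit. In bulk tissue, fewer cells of a type and less RNA per cell cannot be told apart, and probes for related P450 genes may share signal, so that single paralogs are uncertain.

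The first question was which P450 genes changed between IRI livers and livers that were also pre- or postconditioned. Members were called in the IPO livers, and in neither IPC nor IPC+IPO, though no member differed past the threshold between the conditioned groups. Against IRI, 13 of 51 members were past the threshold in IPO (25.5%), 11 higher and 2 lower, where 22.8% of all genes passed (12.4% higher and 10.4% lower); the members' share was near the background. The 11 that rose were Cyp2a1, Cyp2c23, Cyp2d2, Cyp2d3, Cyp2d4, Cyp2f4, Cyp3a23-3a1, Cyp4a3, Cyp4f1, Cyp4f5 and Cyp4v3, by 0.28 to 0.60 on the log2 scale, and Cyp2s1-ps1 and Cyp4x1 fell. Differences were above 0 in 41 members, against 45.9% of all genes, and their median was 0.23 against -0.04. The test was limma's moderated test over 14506 genes with Benjamini-Hochberg adjusted p under 0.05, as in all counts here. In a fit with spread as a covariate 0 members passed (0.0138% of all genes did). In that fit 31 members were above 0 and their median was 0.07, against a median of -0.02 over all genes. The part of spread in these differences was not tested further.

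Neither of the other groups had a called member against IRI. In IPC 0 of 51 members passed, where 0.0276% of all genes did, and 7 members had an unadjusted limma p under 0.05, against 19.3% of all genes. There 34 members were above 0, against 47.1% of all genes, with a median of 0.07 against -0.01. In IPC+IPO 0 members passed, where 0% of all genes did, and 15 had an unadjusted limma p under 0.05, against 21.5% of all genes. Here 43 members were above 0, against 46.2% of all genes, with a median of 0.18 against -0.02. These 3 comparisons share the IRI animals, so their values are given side by side only. No member had groups without overlap in them, against 0.00689%, 0.062% and 0% of all genes in IPC, IPO and IPC+IPO.

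**Figure D1:**
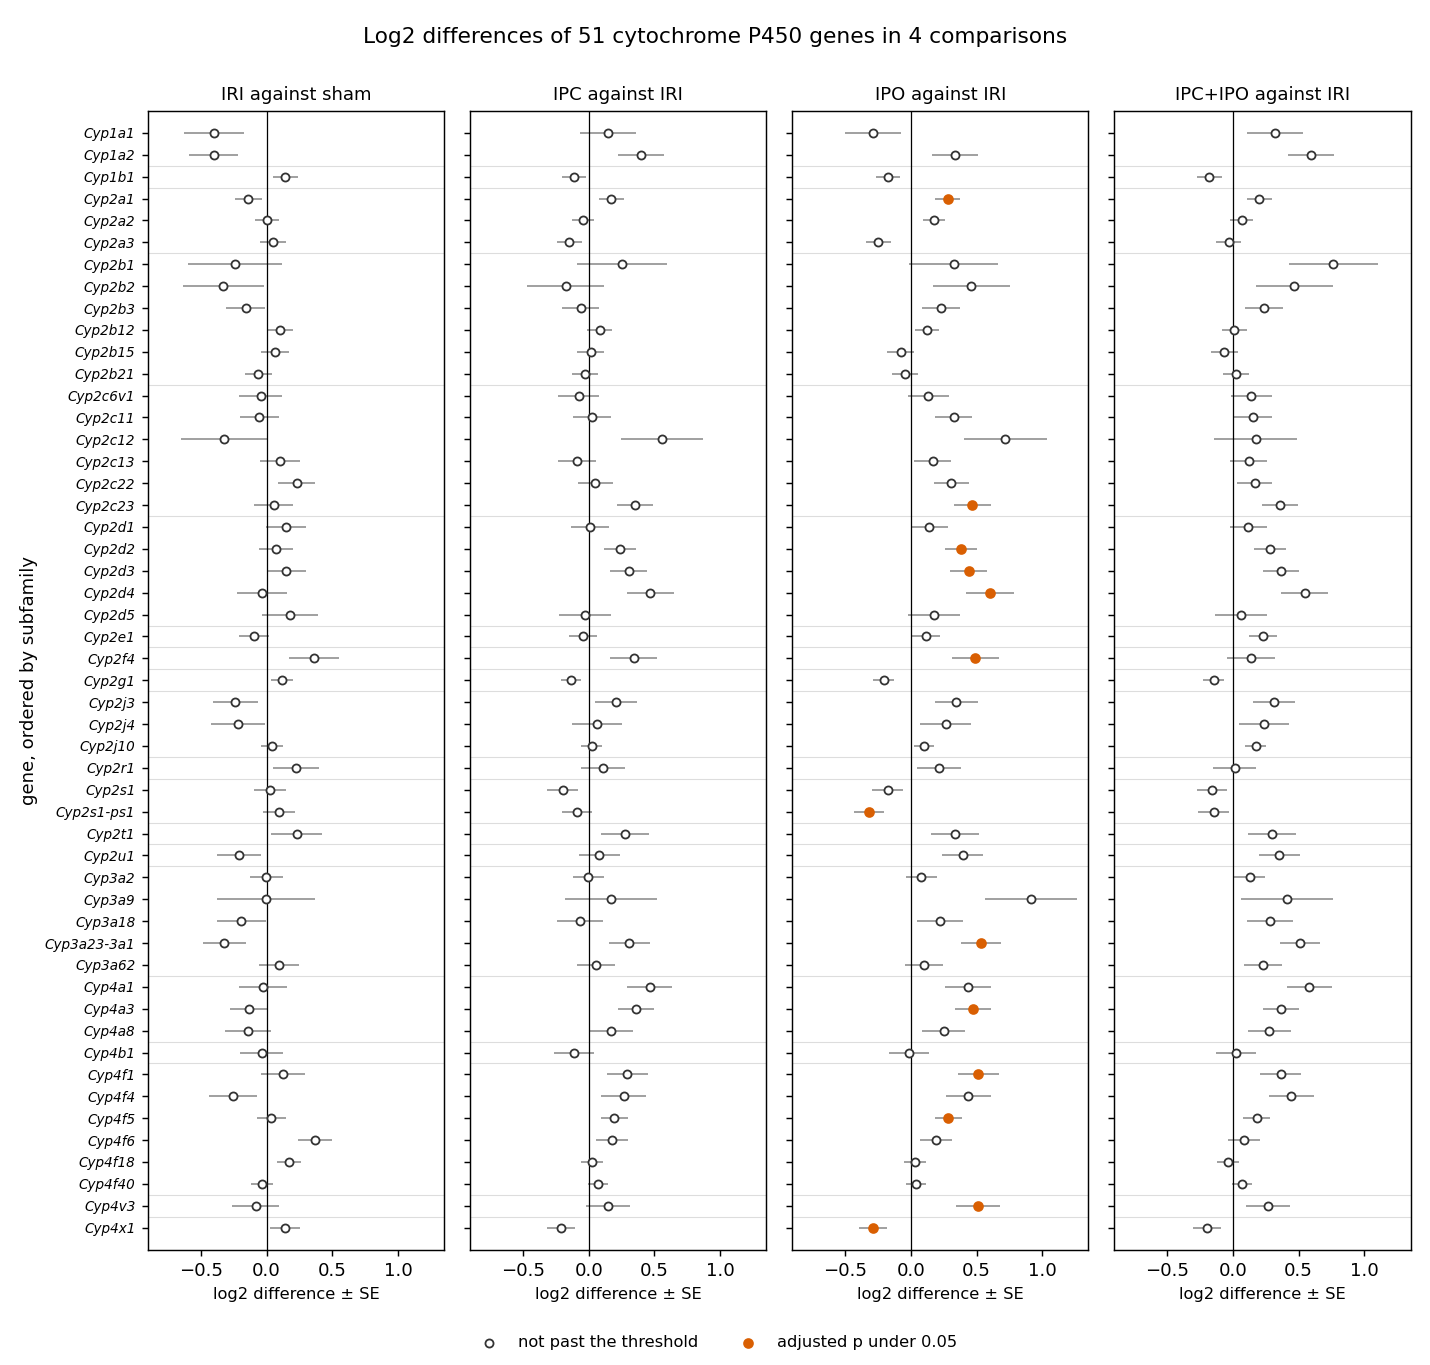
Log2 differences (x axis, ± SE) of the 51 genes, ordered by subfamily (y axis), in 4 comparisons; filled points are past the adjusted p threshold of 0.05. In IPO against IRI 11 members were past it on the right of 0 and 2 on the left, and 0 members in the other 3 panels.

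The medians of dim and bright members differed in direction, as did those of all dim and bright genes. The 14 members among the dimmest 33.3% of genes over all arrays had a median of -0.12 in IPO against IRI, with 5 above 0, and both called falls were among them. All genes of that dim class had a median of -0.19. Of the other 37 members 36 were above 0, with a median of 0.33, and the genes outside it had one of 0.14. With the covariate the median of those 37 members was 0.09.

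The Cyp2d genes, which oxidise many basic drugs, held 3 of the 11 rises. Cyp2d4 (probe set 10905721) ran from 7.02 to 8.48 in IRI, with a median of 7.95, and from 7.95 to 8.90 in IPO, with a median of 8.52; sham ran from 7.25 to 8.73, IPC from 7.99 to 8.72 and IPC+IPO from 7.23 to 9.15. In 7 of the 10 IPO animals it lay above every IRI animal. The difference was 0.60 ± 0.18 (SE), or 1.52-fold (adjusted limma p = 0.0220), and 0.20 with the covariate. Cyp2d2 ran from 11.10 to 11.80 in IRI (median 11.33) and from 11.40 to 11.95 in IPO (median 11.87), a rise of 0.38 ± 0.12 (adjusted limma p = 0.0268), with 7 IPO animals above every IRI animal. For Cyp2d3, with IRI from 10.04 to 11.004 (median 10.66) and IPO from 10.504 to 11.28 (median 11.13), the rise was 0.44 ± 0.14 (adjusted limma p = 0.0264), and 8 IPO animals lay above all of IRI. IPO animal 30 was the lowest IPO animal in all 3 genes, inside the IRI range. With the covariate Cyp2d2 and Cyp2d3 stood at 0.09 each. Cyp2d1 and Cyp2d5 were not past the threshold, at 0.14 and 0.18, so that all 5 Cyp2d genes were above 0 as deposited but 3 of 5 with the covariate and 3 of 5 after renewed quantile normalization. The 5 genes are neighbours in the rat genome.

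Among family 4, whose enzymes hydroxylate fatty acids and eicosanoids at the end of the chain, 4 of 12 members rose and 1 fell. The Ppara target Cyp4a3 (probe set 10878787) ran from 11.09 to 12.00 in IRI (median 11.36) and from 11.80 to 12.10 in IPO (median 11.98), so that the IPO animals were narrowly grouped near the top of the IRI range and 5 lay above it. It rose by 0.47 ± 0.14 (1.39-fold, adjusted limma p = 0.0195), and stood at 0.24 with the covariate. Its neighbour Cyp4a1 had a median of 8.91 in IRI (7.98 to 9.71) and 9.34 in IPO (8.85 to 9.56), at 0.44 ± 0.17 not past the threshold (adjusted limma p = 0.0558). The dim Cyp4a8 stood at 0.25. All 3 Cyp4a genes were above 0 as deposited, with the covariate, with arrays centred and after renewed quantile normalization.

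Cyp4f enzymes inactivate leukotrienes, and 2 of their 6 genes rose in IPO. Cyp4f1 ran from 9.80 to 11.24 in IRI (median 10.41) and from 10.62 to 11.24 in IPO (median 11.02). None of the IPO animals lay above the highest IRI animal, IRI animal 1, but all 10 lay above the IRI median, and the rise was 0.51 ± 0.16 (1.43-fold, adjusted limma p = 0.0245), or 0.20 with the covariate. For Cyp4f5 the rise was small, 0.28 ± 0.10 (adjusted limma p = 0.0419), with IRI from 5.96 to 6.75 and IPO from 6.45 to 6.82. Its within-group slope on spread was not past the threshold. After renewed quantile normalization Cyp4f5 stood at 0.10 (adjusted limma p = 0.598), and with the covariate at 0.27, called in neither. Cyp4f4 was at 0.44 ± 0.17 (adjusted limma p = 0.0539) and Cyp4f6 at 0.19 ± 0.12 (adjusted limma p = 0.196). Cyp4v3, a fatty acid hydroxylase gene, ran from 6.43 to 7.89 in IRI and from 7.56 to 8.23 in IPO and rose by 0.51 ± 0.17 (adjusted limma p = 0.0307), or 0.20 with the covariate. The dim Cyp4x1, known mainly from brain, fell by 0.29 ± 0.11 (adjusted limma p = 0.0455), and stood at -0.06 with the covariate. IRI animal 7 held its highest value, 4.99 in a group whose median was 3.91, and without that animal the difference was -0.18 and not called (adjusted limma p = 0.151). Cyp4b1, at -0.02 ± 0.15, showed no difference beyond its error.

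In family 3 the Nr1i2 target Cyp3a23-3a1 (probe set 10760131) rose by 0.53 ± 0.15 (1.45-fold, adjusted limma p = 0.0197). It ran from 9.52 to 10.47 in IRI (median 10.14) and from 10.13 to 11.11 in IPO (median 10.70), with 6 IPO animals above all of IRI; the sham range, 9.70 to 11.05, was nearly that of both together. This was the one member called in IPO against IRI whichever of the 20 arrays was left out (highest adjusted limma p = 0.0485). It missed the threshold after renewed quantile normalization (adjusted limma p = 0.0740) and without the 14 arrays of lowest spread (adjusted limma p = 0.0726). With the covariate it stood at 0.31. Cyp3a9 had the largest difference of the 51, 0.91 ± 0.35, but was not past the threshold (adjusted limma p = 0.0505). In 7 of 10 IPO animals Cyp3a9 lay above every IRI animal, whose highest value was 8.77, while IPO animal 30 had the lowest IPO value at 6.21. The male-predominant Cyp3a2 and Cyp3a18 stood at 0.08 ± 0.12 and 0.22 ± 0.17. All 5 Cyp3a genes were above 0 as deposited, but 2 of 5 with the covariate and 4 of 5 after renewed quantile normalization.

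**Figure D2:**
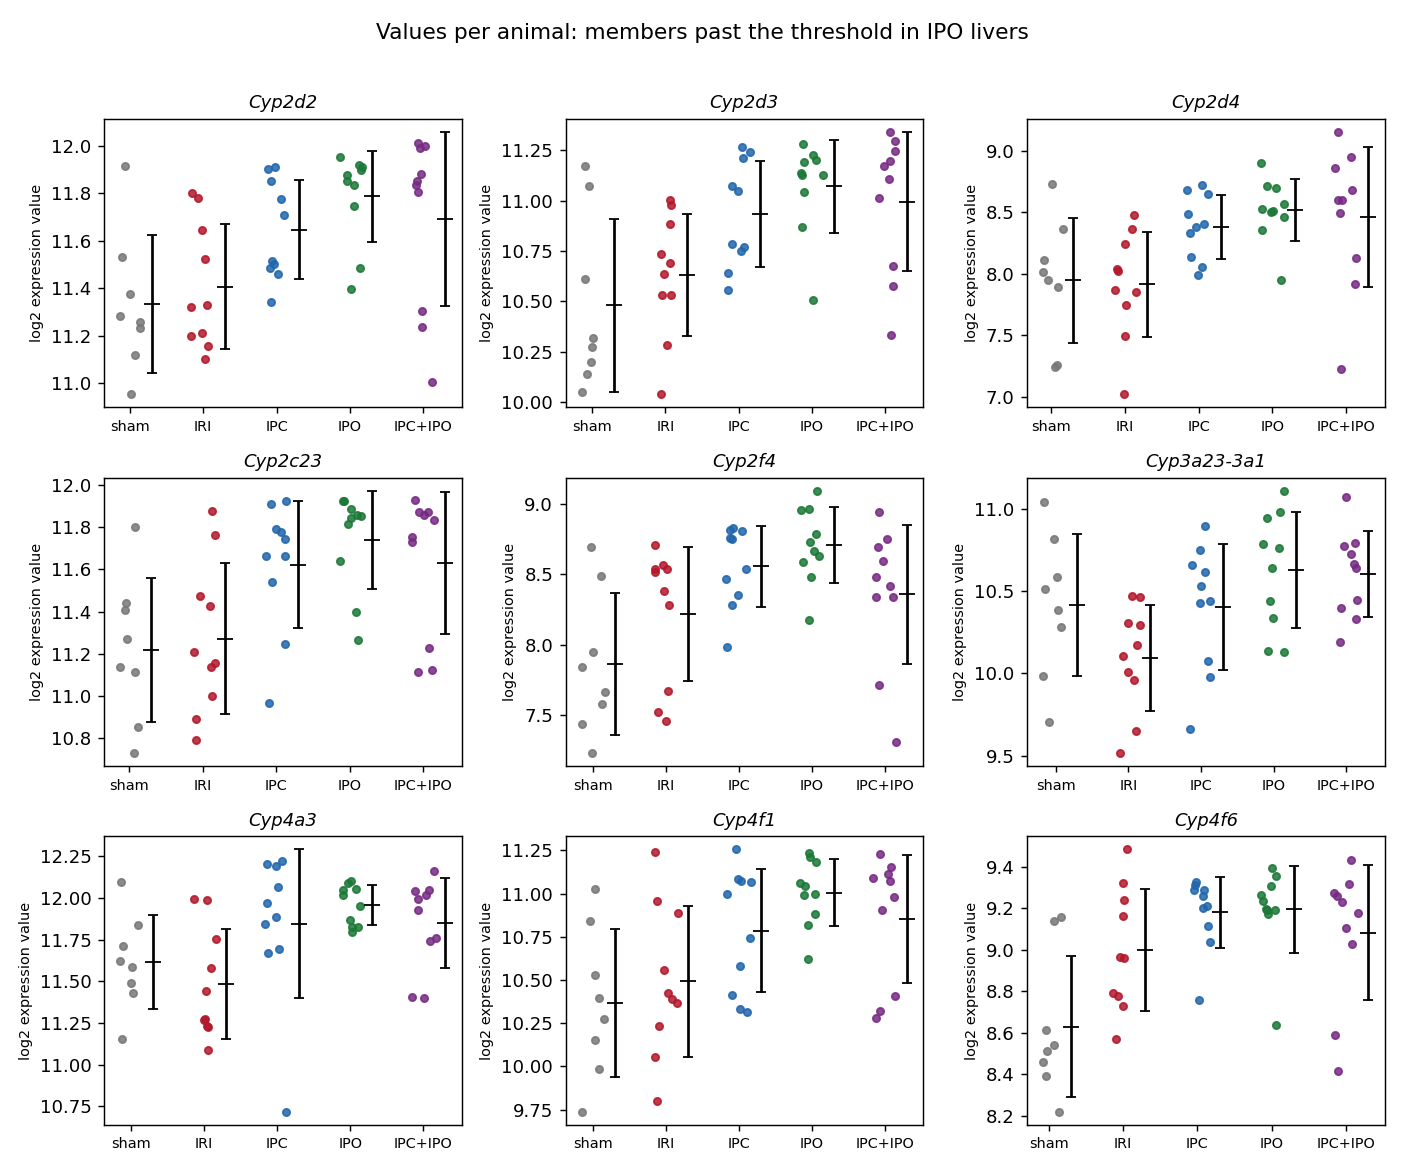
Log2 expression values (y axis) of 9 members in each animal, by group (x axis), with the group mean ± SD beside the points. In Cyp2d4 and Cyp3a23-3a1 respectively 7 and 6 of the 10 IPO animals lay above every IRI animal, and in Cyp4f6 9 lay above every sham animal.

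Other members of family 2 that rose in IPO came from 3 subfamilies. Cyp2c23, an epoxygenase of arachidonic acid, ran from 10.79 to 11.88 in IRI (median 11.18) and from 11.27 to 11.93 in IPO (median 11.85). It rose by 0.47 ± 0.14 (1.38-fold, adjusted limma p = 0.0217), and all 10 IPO animals were above the IRI median. Cyp2f4, whose enzyme activates naphthalene, rose by 0.49 ± 0.18 (1.41-fold, adjusted limma p = 0.0436), from an IRI range of 7.46 to 8.71 to an IPO range of 8.18 to 9.10. Cyp2a1, a testosterone hydroxylase gene, rose by 0.28 ± 0.09 (adjusted limma p = 0.0337). In the pseudogene Cyp2s1-ps1, dim in all groups, the fall was 0.31 ± 0.12 (adjusted limma p = 0.0438). With the covariate these 4 stood at 0.22, 0.12, 0.14 and -0.08.

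The count in IPO against IRI changed with single arrays. It was 1 without IRI animal 7 (2.72% of all genes), 4 without IRI animal 8 (12.0%), 7 without IRI animal 9 or IPO animals 23 or 26 (12.2% to 13.7%) and 8 without IPO animals 22, 27, 28 or 29 (12.6% to 16%). It was 22 without IRI animal 1 (36.8%) or 6 (29.9%), so that the count moved with the background. IRI animal 7 also had the lowest mean correlation with the other arrays over all genes, 0.888. The next lowest was 0.933, in IPC+IPO animal 38. Of the 20 fits that left out an array, Cyp2c23 and Cyp4a3 missed the threshold in 1, Cyp2d2, Cyp2d3, Cyp2d4 and Cyp4f1 in 2 and Cyp4v3 in 5, but Cyp2a1, Cyp2f4, Cyp4f5, Cyp2s1-ps1 and Cyp4x1 in 10 to 14. Without IRI animal 7 the differences of Cyp2d4 and Cyp4a3 had adjusted limma p = 0.0635 and 0.0567. Without the 14 arrays of lowest spread Cyp2d3 (0.36) and Cyp2d4 (0.49) were the 2 members called, with 7.42% of all genes.

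**Figure D3:**
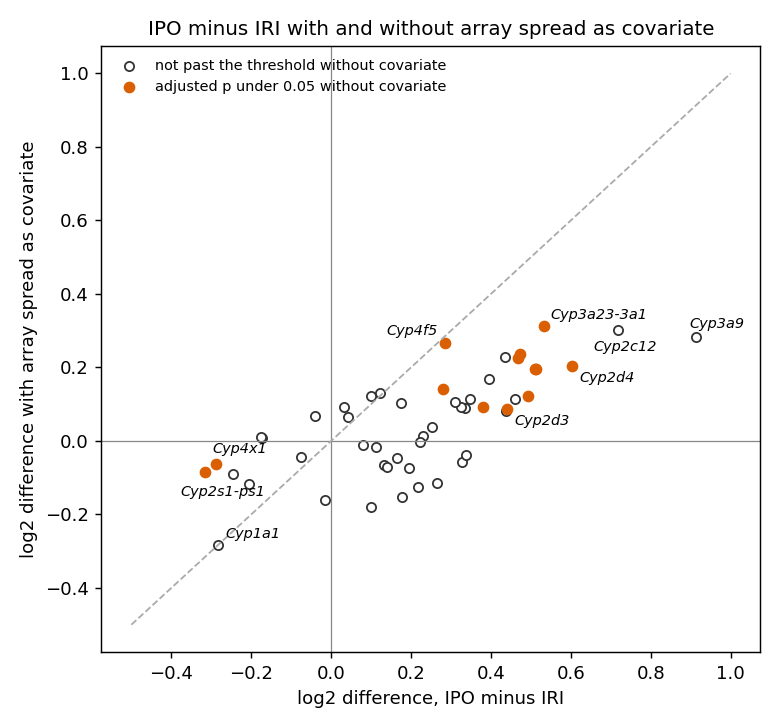
Log2 differences of the 51 members in IPO against IRI as deposited (x axis) and with array spread as a covariate (y axis); the dashed line marks equal values and filled points were past the threshold as deposited. Cyp2d4 went from 0.60 to 0.20 and Cyp3a9 from 0.91 to 0.28, while Cyp4f5 and Cyp1a1 lay near the line.

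In IPC and IPC+IPO against IRI no member was called, and those of smallest p are given by value. In IPC the smallest p values belonged to Cyp4a1 (0.47 ± 0.17), Cyp4a3 (0.36 ± 0.14) and Cyp2d4 (0.47 ± 0.18), with adjusted limma p = 0.179, 0.181 and 0.191. Cyp4a1 ran from 8.83 to 9.92 in IPC, with 9 of 10 animals above the IRI median of 8.91. Cyp4a3 had 4 IPC animals above every IRI animal and IPC animal 12, at 10.72, below all of them. In IPC+IPO they belonged to Cyp1a2 (0.59 ± 0.17), Cyp4a1 (0.58 ± 0.17) and Cyp3a23-3a1 (0.51 ± 0.15), with adjusted limma p = 0.0950, 0.0950 and 0.0971. Cyp3a23-3a1 ran from 10.19 to 11.07 there, all 10 animals above the IRI median of 10.14. Cyp1a2 ran from 10.77 to 11.70 in IPC+IPO against 9.59 to 11.22 in IRI. Without IPC+IPO animal 38, 11 members were called in IPC+IPO against IRI, with 11.8% of all genes; 4 were without IRI animal 1 (5.40%) and 3 without IPC+IPO animal 37 (2.42%).

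No member was past the threshold between the conditioned groups themselves or in the interaction of the interventions, where 0% of all genes passed in each. An unadjusted limma p under 0.05 was seen for 8 members in IPO against IPC (4.06% of all genes), 3 in IPC+IPO against IPC (1.62%), 2 in IPC+IPO against IPO (3.32%) and 8 in the interaction (20.3%). Differences of Cyp2d4 from IRI were 0.47, 0.60 and 0.55 in IPC, IPO and IPC+IPO, those of Cyp2d2 were 0.24, 0.38 and 0.28, and those of Cyp4a3 were 0.36, 0.47 and 0.37. For Cyp2f4 the 3 values were 0.34, 0.49 and 0.14. Its interaction term, the departure of IPC+IPO from the sum of the separate differences, had the smallest p of the members, at -0.69 ± 0.25 (limma p = 0.00877, adjusted p = 0.209). Cyp2c12 followed this order too, with 0.56, 0.72 and 0.17 and an interaction of -1.10 ± 0.44 (adjusted limma p = 0.212).

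What ischemia and reperfusion alone did was asked by IRI against sham. Here 0 of 51 members passed, where 0.241% of all genes did (0.172% higher and 0.0689% lower), and 2 members had an unadjusted limma p under 0.05 against 11.5% of all genes. The median difference of the members was -0.002, against 0.03 for all genes, and 25 of 51 were above 0, against 58.4% of all genes. Cyp4f6 had the smallest p, with sham from 8.22 to 9.16 (median 8.53) and IRI from 8.57 to 9.48 (median 8.96), a difference of 0.37 ± 0.13 (adjusted limma p = 0.197). All 10 IRI animals were above the sham median. With the covariate it stood at 0.28 and was past the threshold (adjusted limma p = 0.0327, with 5.89% of all genes called), but it was at -0.10 when the 14 low-spread arrays were dropped, which keeps 2 sham arrays. Cyp1a2 stood at -0.40 ± 0.18 (adjusted limma p = 0.388), with IRI animal 7 lowest at 9.59. Cyp3a23-3a1 stood at -0.32 ± 0.16 (adjusted limma p = 0.449), or at -0.51 after renewed quantile normalization, where it was past the threshold (adjusted limma p = 0.0457).

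Against sham, the livers of all 3 conditioned groups had Cyp4f6 higher. In IPO 11 members were called (23.2% of all genes), 10 higher (15.4%) and Cyp1a1 lower (7.76%). In IPC 2 were, Cyp2f4 and Cyp4f6, both higher (6.58% of all genes, 5.6% higher and 0.986% lower). In IPC+IPO 2 were, Cyp2d3 and Cyp4f6, both higher (3.62% of all genes, 3.05% higher and 0.565% lower). The unadjusted limma p was under 0.05 in 19 members in IPO (40.7% of all genes), 11 in IPC (23.9%) and 12 in IPC+IPO (23.6%). Cyp4f6 was called in all 3, at 0.56 ± 0.13 in IPO, 0.55 ± 0.13 in IPC and 0.45 ± 0.13 in IPC+IPO, and 9, 7 and 6 of 10 animals lay above every sham animal. Cyp2f4 ran from 7.23 to 8.69 in sham (median 7.75) and had a median of 8.70 in IPO, a rise of 0.85 ± 0.19 (1.80-fold, adjusted limma p = 0.00418), with 5 IPO animals above all of sham; in IPC the rise was 0.70 ± 0.19. Cyp2d3 rose by 0.59 ± 0.15 in IPO and 0.52 ± 0.15 in IPC+IPO. The other rises in IPO were those of Cyp2c22 (0.54 ± 0.14), Cyp2c23 (0.52), Cyp2d2 (0.45), Cyp2d4 (0.57), Cyp2t1 (0.56), Cyp4f1 (0.64) and Cyp4f5 (0.32).

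These comparisons with sham also moved with spread, whose mean was lowest in sham. With the covariate 0 members were called in any of them (0%, 1.9% and 0.234% of all genes in IPO, IPC and IPC+IPO), with Cyp2f4 at 0.36 and Cyp4f6 at 0.21 in IPO, and Cyp2d4 at 0.04. Without the 14 arrays of lowest spread 0 members were called, and Cyp2f4 in IPC and Cyp2t1 in IPO turned to -0.06 and -0.17. The counts lay between 7 and 17 in IPO when an array was left out (17 without sham animal 43, with 38.4% of all genes, and 7 without sham animal 41, with 12.6%). In IPC they lay between 1 (without sham animals 41 or 44 to 47, with 2.02% to 3.24% of all genes) and 8 (without sham animal 43, 16.5%), with 4 without sham animal 48 (13.2%) or IPC animal 17 (8.13%). In IPC+IPO they were 10 without IPC+IPO animals 37 (12.6%) or 38 (16.2%) or sham animal 43 (16.8%), 9 without sham animal 48 (12.3%), and 0 (0.338% to 1.5%) when any 1 of 13 arrays was left out, namely sham 41, 42, 44, 45, 46 and 47 and IPC+IPO 31, 32, 33, 35, 36, 39 and 40.

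Cyp1a1, the classic target of Ahr, went the other way from most members. It was among the dimmest 33.3% of genes and ran from 4.16 to 5.99 in sham (median 4.78), from 3.98 to 5.65 in IRI (median 4.50) and from 3.86 to 4.95 in IPO (median 4.11). In 6 of 10 IPO animals it lay below every sham animal, and it was 1.61-fold lower, by -0.68 ± 0.23 (adjusted limma p = 0.0275). Its values hardly followed spread within groups (slope -0.01 log2 units per unit of spread), and with the covariate the difference was -0.68, not called (adjusted limma p = 0.326). Without sham animal 42, its highest value, the adjusted limma p was 0.0854. IPC+IPO ran from 4.20 to 5.97 with a median of 4.80, and IPC from 4.32 to 5.01. Its neighbour Cyp1a2, the bright hepatocyte form of the subfamily, had its lowest median among IRI animals at 10.83, then 10.96 with IPO, 11.10 with sham, 11.16 with IPC and 11.18 with IPC+IPO, and all ranges overlapped. Cyp1b1 was dim, at medians of 4.22 to 4.38, and not past the threshold in any comparison.

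Of the 51 members 34 were not past the threshold in any comparison. In IPO against IRI the 6 Cyp2b genes stood between -0.08 and 0.46, the 6 Cyp2c genes between 0.13 and 0.72 and the 3 Cyp2j genes between 0.10 and 0.35. Cyp2e1, the ethanol-oxidising form, had medians from 11.56 in IRI to 11.78 in IPC+IPO and a difference of 0.11 ± 0.11 in IPO against IRI. Cyp2j3, an epoxygenase gene, stood at 0.35 ± 0.16 there, with IPC+IPO animal 38 lowest of its group at 8.29. Cyp2u1, a fatty acid hydroxylase gene, was at 0.39 ± 0.16 (adjusted limma p = 0.0568), and all 10 IPO animals, from 6.53 to 7.06, lay above the IRI median of 6.36. The vitamin D hydroxylase gene Cyp2r1 stood at 0.22 ± 0.17, the olfactory form Cyp2g1 at -0.21 ± 0.08 (adjusted limma p = 0.0506) and Cyp2b3 at 0.23 ± 0.14.

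Of the 5 members that varied most from animal to animal, Cyp1a1 was called in a comparison and the other 4 in none. Within groups the SD was 0.825 for Cyp3a9, 0.800 for Cyp2b1, 0.738 for Cyp2c12 and 0.686 for Cyp2b2, each larger than in over 99% of all genes, and 0.498 for Cyp1a1, larger than in 94.8%. Cyp2b1 and Cyp2b2 are the forms best known for induction by phenobarbital. Cyp2b1 ran from 4.91 to 7.04 over sham animals and from 4.84 to 7.16 over IRI animals, and reached 7.23 with IPC, 6.87 with IPO and 8.65 with IPC+IPO; Cyp2b2 reached 9.97 in the last group. The same animals were highest in both genes in sham (animal 43), IRI (animal 6), IPO (animal 22) and IPC+IPO (animal 39), but not in IPC, where animal 13 was highest in Cyp2b1 and animal 20 in Cyp2b2. Cyp2c12, a female-predominant form, ran from 6.42 to 9.54 over these male rats; whether its probes read other Cyp2c genes was not tested. The differences of these genes from IRI were up to 0.91 but none was called. At the other end, Cyp4f40, Cyp2g1 and Cyp2j10 had within-group SDs of 0.156 to 0.162.

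**Figure D4:**
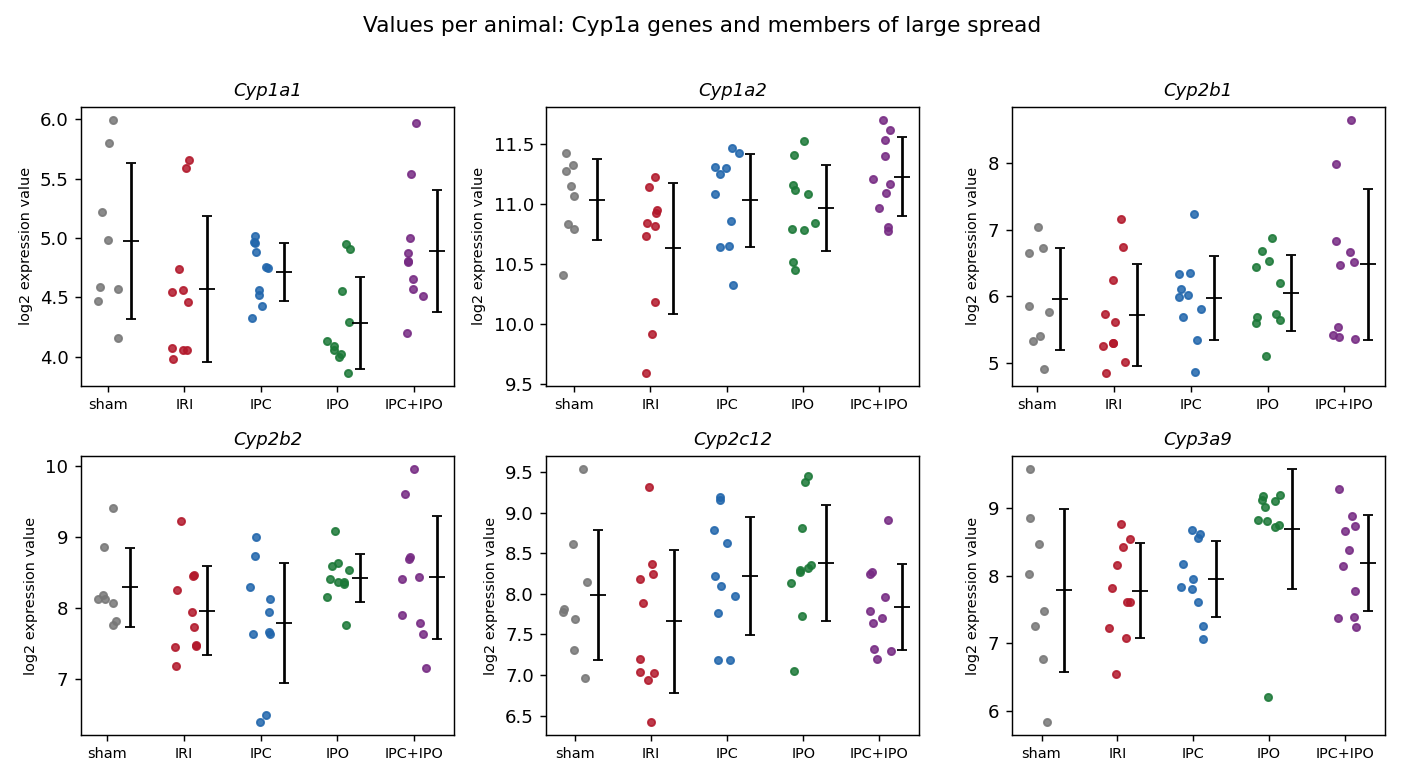
Log2 expression values (y axis) of 6 members in each animal, by group (x axis), with the group mean ± SD beside the points. Cyp2b1 and Cyp2b2 reached their highest values, 8.65 and 9.97, in IPC+IPO animal 39, and Cyp3a9 fell to 6.21 in IPO animal 30.

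Some members varied together from animal to animal. Correlations are given over the 48 arrays as a description, on residuals from group means and with each gene's slope on spread removed, since arrays share their spread. The 76 pairs within a subfamily had a median r of 0.292, ranging from -0.494 to 0.867, and 18 were above 0.5; the 1199 pairs between subfamilies had a median of 0.063, and 57 were above 0.5. Of all 1275 pairs 5.88% were above 0.5, against 2.65% of all gene pairs on the array; before the slope was removed these were 16.7% and 12.7%. Of the 10 subfamilies with pairs, Cyp2j, Cyp2s and Cyp4a had medians below 0, at -0.03, -0.14 and -0.06. The closest pairs were Cyp2c13 with Cyp2c6v1 (0.867) and Cyp2c11 with Cyp2c13 (0.842). Related probes may share signal in such pairs.

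Members of several subfamilies formed a block that held the male-predominant genes and others. Cyp2a2, Cyp2c11, Cyp2c13, Cyp3a2 and Cyp3a18 had 10 pairwise correlations between 0.457 and 0.842, with a median of 0.696, and a median of 0.737 before the slope was removed. Cyp2c6v1, which is not on that list, correlated as closely, at 0.867 with Cyp2c13, 0.818 with Cyp2c11, 0.745 with Cyp3a2 and 0.726 with Cyp2a2, and Cyp2b3 stood at 0.649 with Cyp2c11. A further block joined Cyp2c23, Cyp2d2 and Cyp4f1, at 0.705 to 0.772. Cyp2f4 and Cyp2t1 (0.567 with each other) ran opposite to the male-predominant members, at -0.732 to -0.385 with a median of -0.550; before the slope was removed that median was -0.015. These sets were picked after their values were seen.

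**Figure D5:**
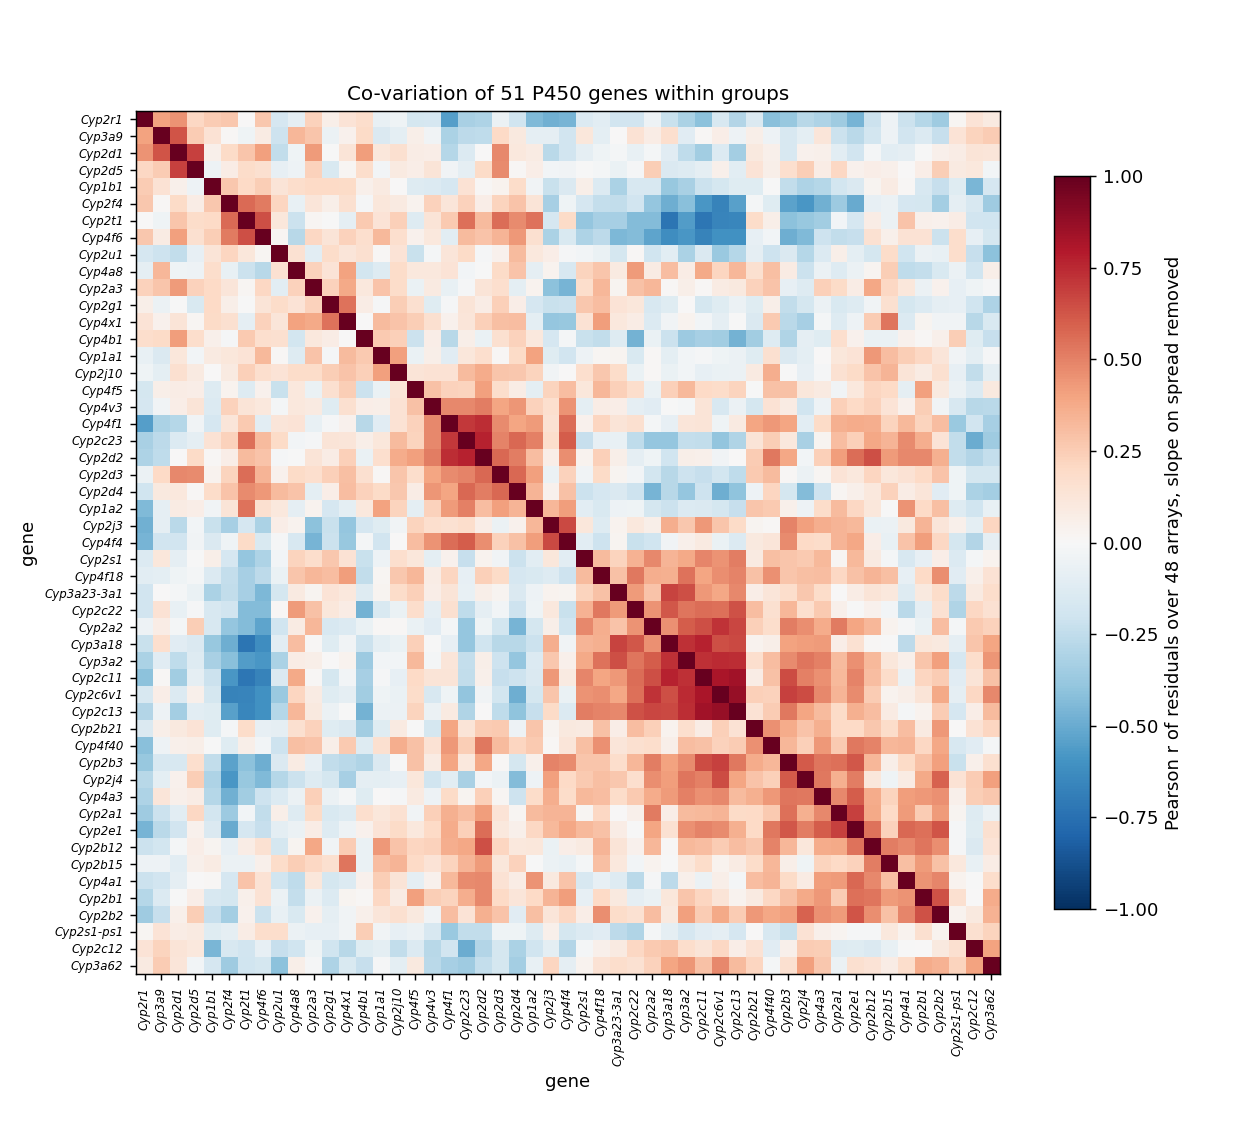
Pearson correlations of the 51 members (both axes, ordered by similarity) over 48 arrays, on residuals from group means with the slope on spread removed; red is positive and blue negative. The red block at lower right of the centre holds Cyp2a2, Cyp2c11, Cyp2c13, Cyp3a2 and Cyp3a18, and the blue stripes are those of Cyp2f4, Cyp2t1 and Cyp4f6.

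Promoter windows of members that varied together are shown to set their sequences beside these correlations. RefSeq windows of GRCr8, 250 bases before the gene start, were at hand for 44 members, as 46 windows. In the Cyp3a windows capitals mark TGAACT, a core motif of nuclear receptors such as Nr1i2, and CAAAGTCCA, a site of Hnf4a, on either strand.
Cyp3a23-3a1 (chr12:14398804-14399053, minus strand): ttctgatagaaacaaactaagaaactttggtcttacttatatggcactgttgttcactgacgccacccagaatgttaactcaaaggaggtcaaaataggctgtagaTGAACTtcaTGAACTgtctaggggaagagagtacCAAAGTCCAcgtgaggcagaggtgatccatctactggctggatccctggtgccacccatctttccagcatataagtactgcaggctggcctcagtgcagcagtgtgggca
Cyp3a2 (chr12:14343858-14344107, minus strand): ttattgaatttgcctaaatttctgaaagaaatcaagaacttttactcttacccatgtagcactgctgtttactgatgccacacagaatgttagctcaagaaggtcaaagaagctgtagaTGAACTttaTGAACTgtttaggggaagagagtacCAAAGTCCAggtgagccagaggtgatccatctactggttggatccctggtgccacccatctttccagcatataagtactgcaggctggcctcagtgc
Cyp3a18 (chr12:13994062-13994311, plus strand): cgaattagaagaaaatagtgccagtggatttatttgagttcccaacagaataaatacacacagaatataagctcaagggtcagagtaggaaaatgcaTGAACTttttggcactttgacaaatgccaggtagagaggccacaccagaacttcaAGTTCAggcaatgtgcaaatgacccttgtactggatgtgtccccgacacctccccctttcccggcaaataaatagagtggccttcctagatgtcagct

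A direct repeat, 2 copies of TGAACT on one strand with 3 bases between them, stood in the windows of Cyp3a23-3a1 and Cyp3a2 and in no other of the 33469 windows of the table (0.00598%), both strands searched, and in both windows CAAAGTCCA followed it. Cyp3a18 held TGAACT on each strand without the repeat. Windows of Cyp3a2 and Cyp3a23-3a1 were 82.8% identical, and that of Cyp3a18 was 58.4% identical to Cyp3a2 and 57.6% to Cyp3a23-3a1, with gaps at the ends of windows not penalised. Residuals of Cyp3a23-3a1 correlated at 0.647 with Cyp3a2 and 0.672 with Cyp3a18, and those of Cyp3a18 with Cyp3a2 at 0.728. In IPO against IRI the differences were 0.53, 0.08 and 0.22 for Cyp3a23-3a1, Cyp3a2 and Cyp3a18. Over the members' 46 windows TGAACT stood in 23.9% and AGGTCA, another core motif of these receptors, in 32.6%, against 12.2% and 14.1% of all windows. GCGTG, the core bound by Ahr, stood in 26.1% against 25.9%, and TTANNTAA, the core bound by the clock output factors Dbp and Tef, in 6.52% against 5.32%. CAAAGTCCA stood in 2 members' windows, against 0.338% of all. Near-identical neighbours count here as separate windows, and a match is a match of letters.

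The windows of Cyp2b1 and Cyp2b2, whose residuals correlated at 0.638, are set side by side with capitals on bases that differ or have no partner in the alignment.
Cyp2b1 (chr1:90645869-90646118, plus strand): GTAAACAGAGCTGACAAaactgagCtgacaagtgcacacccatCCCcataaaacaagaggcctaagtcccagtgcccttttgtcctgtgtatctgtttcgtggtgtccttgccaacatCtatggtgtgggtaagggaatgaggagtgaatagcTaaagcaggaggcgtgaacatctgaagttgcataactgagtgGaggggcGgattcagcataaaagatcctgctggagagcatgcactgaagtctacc
Cyp2b2 (chr1:90722031-90722280, plus strand): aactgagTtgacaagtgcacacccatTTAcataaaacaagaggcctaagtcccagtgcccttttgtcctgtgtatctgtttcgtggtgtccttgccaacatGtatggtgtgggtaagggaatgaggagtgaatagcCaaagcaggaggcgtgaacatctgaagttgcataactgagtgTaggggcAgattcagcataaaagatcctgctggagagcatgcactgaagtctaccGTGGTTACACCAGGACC

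Of 250 bases 225 were aligned and identical (90%), with the ends of the windows offset. The genes are neighbours in a run that holds 14 of the members, from subfamilies Cyp2a, Cyp2b, Cyp2f, Cyp2g, Cyp2s and Cyp2t, and in all 44 of the 51 members lie in 9 such runs. Within the run of 14, Cyp2a1 and Cyp2f4 rose in IPO against IRI and Cyp2s1-ps1 fell.

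Partners of the P450 enzymes were measured from lists of related genes, with 22.8% of all genes called in IPO against IRI. Of 7 redox partners 4 rose there: Cyb5b (0.67 ± 0.15), Pgrmc2 (0.69 ± 0.19), Cyb5r3 (0.68 ± 0.21) and Cyb5a (0.37 ± 0.13), which carry electrons to P450 enzymes or bind them. In the other 3 main comparisons 0 were called. The shares of all genes called were 0.241% in IRI against sham, and 0.0276% in IPC and 0% in IPC+IPO against IRI. The list's median was 0.37 in IPO against IRI, and 0.13 with the covariate. As deposited it was 0.12 in IPC and 0.35 in IPC+IPO against IRI. The electron donor Por had the lowest difference of the list in IPO against IRI, -0.26 ± 0.30 (adjusted limma p = 0.489). It stood at -0.61 ± 0.32 in IRI against sham (adjusted limma p = 0.464), and in IPO against sham it was the 1 redox partner called lower, at -0.87 ± 0.32 (adjusted limma p = 0.0422), or -0.97 and not called with the covariate. Of 11 genes of heme synthesis and breakdown 3 rose: Hmox1 (0.77 ± 0.20), which degrades heme, and Cpox (0.43 ± 0.16) and Alas1 (0.62 ± 0.23), which make it; Alas1 is the rate-limiting enzyme. The median of this list was 0.20, and 0.01 with the covariate.

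Receptors and transcription factors moved both ways in IPO against IRI, where 22.8% of all genes were called. The shares called were 27.3% of the receptor list and 30.8% of the transcription factor list. Of 11 xenobiotic and lipid receptor genes the Ahr partner Arnt (0.56 ± 0.17) and the bile acid receptor Nr1h4 (0.65 ± 0.20) rose. Ahrr, the Ahr repressor, fell by 0.40 ± 0.12, from a low mean of 4.83 in IRI to 4.43 in IPO. With the covariate Arnt, Nr1h4 and Ahrr stood at 0.23, 0.19 and -0.14, none of them called. The median of this list was 0.30, or -0.08 with the covariate. Of 13 liver transcription factors 2 rose and 2 fell. Dbp and Tef, clock output factors that drive P450 genes, fell by 1.69 ± 0.51 and 0.54 ± 0.17, while Nfil3, their antagonist, rose by 0.77 ± 0.24 and Stat5b, which carries the growth hormone signal, by 0.59 ± 0.20. With the covariate Dbp and Tef stood at -1.53 and -0.54, and Nfil3 and Stat5b at 0.51 and 0.24, none of them called. The list's median was 0.19, or -0.02 with the covariate. In IPC against IRI Nfil3, Tef and Stat5b stood at 0.98, -0.44 and 0.52, and in IPC+IPO Nfil3 and Stat5b at 0.56 and 0.27, none of them called. In IRI against sham Nr1i3 (CAR) stood at -0.59 ± 0.22 (adjusted limma p = 0.239), and at -0.68 with the covariate, where it was past the threshold (adjusted limma p = 0.0343).

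Targets of the receptors outside the P450 families were measured too, with 22.8% of all genes called in IPO against IRI. Of 13 Ppara targets 6 rose in IPO against IRI, beside Cyp4a3. Among them were Angptl4 (1.28 ± 0.29), Plin2 (1.08 ± 0.25), Acadm (0.53 ± 0.15) and Hadha (0.60 ± 0.17). With the covariate these named targets stood at 0.77, 0.73, 0.16 and 0.34, none of them called. The list's median was 0.38, and 0.14 with the covariate. Of 4 Ahr targets Ahrr alone was past the threshold, downward. P450 genes of other families, which make or break down sterols, bile acids and vitamins, had a median of -0.15 over 20 genes. Cyp39a1, a bile acid enzyme gene, was higher (0.80 ± 0.20). Another 4 were lower, among them Cyp24a1 (-0.41 ± 0.11), Cyp11a1 (-0.46 ± 0.13) and Cyp21a1 (-0.37 ± 0.11). The IRI and IPO means of these named falling genes were low, from 3.95 to 4.96. With the covariate Cyp39a1 stood at 0.30 and Cyp24a1, Cyp11a1 and Cyp21a1 at -0.19, -0.21 and -0.14, none of them called. In IRI against sham Cyp7a1, the rate-limiting enzyme of bile acid synthesis, stood at -0.97 ± 0.38 (adjusted limma p = 0.281). None of these lists had a member past the threshold in IPC or IPC+IPO against IRI, where 0.0276% and 0% of all genes passed. The median of the Ppara targets was 0.34 in IPC and 0.40 in IPC+IPO against IRI. Angptl4 and Hadha stood at 0.95 and 0.55 in IPC and at 1.03 and 0.62 in IPC+IPO, and Plin2 at 1.18 in IPC.

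Marker genes of liver cells are given beside the members for IPO against IRI, where 22.8% of all genes were called. Of 15 hepatocyte markers 6 were higher and 1 lower, with a median of 0.25, and their mean level ran from 12.01 to 12.24 over IPO animals against 11.64 to 12.12 over IRI animals. Non-P450 markers of pericentral hepatocytes, where many of these enzymes are concentrated, had 1 of 8 higher and a median of 0.04. Their mean level ran from 6.98 to 7.45 in IPO and from 6.84 to 7.40 in IRI, and Glul of that list was not measured. Periportal markers had 2 of 10 higher and a median of 0.28. Kupffer cell markers had 2 of 10 higher (median 0.29, mean level 7.01 to 8.41 in IPO and 6.77 to 8.11 in IRI) and stellate markers 1 of 9. Erythroid and neutrophil markers had 1 lower of 5 and of 7, and sinusoidal endothelial, cholangiocyte and lymphocyte markers 0 of 6, 5 and 6. With the covariate the hepatocyte and Kupffer medians were 0.07 and -0.08. Apart from the hepatocyte list, each list had a share called under that of all genes. The part of cell makeup in the members' differences was not tested.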

How the data were processed

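Liver RNA of 48 rats was measured on 1 Affymetrix array each. The deposited log2 values per probe set were made by the authors with RMA in Affymetrix Expression Console, per the submitters' processing notes; the genome build is not given in the sources used here. RMA sets arrays to one distribution of probe signals, yet array spread still differed. Of 29215 probe sets 15310 had 1 symbol in the platform annotation, 323 several and 13582 none; for each of 14506 genes the probe set of highest mean was used. All 5 groups were fitted together in limma 3.58.1 (R 4.3.3) with lmFit and eBayes (43 residual degrees of freedom), with Benjamini-Hochberg adjustment over all genes and a threshold of 0.05. The script was tested on simulated data with independent noise for each gene and no shared array spread. That test does not cover false calls that could come with spread. Members and lists were chosen with earlier results of these data known, and counts adjusted over a list alone are not given.

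Named members were those past the threshold in any of 10 pairwise comparisons, the 3 of smallest p in a main comparison with fewer than 3, and for a subfamily with none the member of highest mean; others were named after their values were seen, for their variation or co-variation. Of other lists up to 4 genes of smallest p were named, and Por, Nr1i3, Cyp7a1 and Stat5b where a value bore on the members. Alternatives were a fit of the groups compared alone, robust variances with a trend, weights per array, array spread as covariate, other gene filters and probe set rules, other scalings, and leaving out arrays. Promoters came from RefSeq (GRCr8), aligned with Biopython 1.88; figures were drawn with matplotlib 3.10.9. Each array is a separate rat, per the labels.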

Additional observations from a re-analysis of the deposited data

Results flagged for a closer look

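In 12 of 135 groups tested, 5 groups for each of 27 members, 1 animal stood apart from the rest of its group by Dixon's ratio. Chance alone flags about 1 group in 20, but the members share arrays, so these are not independent tests. IPO animal 30 was the low one in Cyp2d3 (10.504), Cyp4f6 (8.64), Cyp2c22 (11.82) and Cyp2r1 (5.30). IPC+IPO animal 38 was the high one in the dim genes Cyp4x1 (4.36) and Cyp1b1 (4.58) and the low one in Cyp2j3 (8.29). IPC animal 20 was low in Cyp4f6 (8.76) and Cyp2r1 (5.15). IRI animal 7 was high in Cyp4x1 (4.99) and low in Cyp2r1 (5.28). IPC animal 12 was low in Cyp4a3 (10.72). All these animals but IPC animal 20 were among the 14 arrays of lowest spread. The part of spread in these flags was not tested.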

How the results depend on the processing

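No paired analysis was possible because each animal number occurs in 1 group. Counts of members are given with the percentage of all genes called in the same fit. For IPO against IRI, 13 members were called (22.8%), and 24 with array weights (42%), 0 with array spread as covariate (0.0138%), 4 after renewed quantile normalization (8.89%) and 2 without the 14 arrays of lowest spread (7.42%); leaving out 1 array gave 1 (2.72%) to 22 (29.9% and 36.8%). With array weights 6 (13.1%), 3 (3.92%) and 18 (30.9%) members were called in IRI against sham, IPC against IRI and IPC+IPO against IRI, where the fit as designed called 0, and 1 in the interaction (1.3%). IRI against sham had 1 with the covariate (5.89%), 1 after a renewed normalization (2.63%) and 0 to 0 with 1 array left out. IPC+IPO against IRI had 2 without the 14 arrays (4.14%) and 0 to 11 (11.8%) with 1 array left out. IPC against sham had 16 with weights (48.6%), 0 with the covariate (1.9%), 1 after renewed normalization (4.62%), 0 without the 14 arrays (0.0483%) and 1 to 8 (16.5%) with 1 array left out. IPO against sham had 19 with only the compared groups fitted (37.6%), 30 with weights (67.2%), 0 with the covariate (0%), 4 after renewed normalization (9.07%), 0 without the 14 arrays (0%) and 7 (12.6%) to 17 (38.4%) with 1 array left out. IPC+IPO against sham had 0 with only the compared groups (0.0827%), 1 with the trended model (3.27%), 24 with weights (62.1%), 0 with the covariate (0.234%), 1 after renewed normalization (2.24%), 0 without the 14 arrays (0%) and 0 to 10 (12.6% to 16.8%) with 1 array left out. Of 22 named differences in the main comparisons, 1 turned: Cyp4f6 in IRI against sham, at -0.10 without the 14 arrays. The cause was not tested. Dim members limit what can be read, since 14 of 51 were among the dimmest 33.3% of genes.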
